A study of Homo sapiens with 4 samples.

Results

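The genes described here are 10 members of the NOTCH pathway in Jurkat cells, taken by name from a table of 22361 genes or loci: the receptors NOTCH1, NOTCH2 and NOTCH3, the nuclear factors RBPJ and MAML1, the targets and feedback genes HES1, HES4, DTX1 and NRARP, and FBXW7, which removes the active receptor. All 10 had a row, and all 10 passed the filter on low values, under which the 4 log2 values of a gene average no less than log2 of 10. Jurkat is an established line of human leukaemic T cells, of the kind called T-ALL. In 2 control libraries the cells had been infected with lentivirus carrying shRNA against GFP, and in 2 knockdown libraries against ARIEL, a long non-coding RNA. All cells were exposed to polybrene, spun with the virus, selected in 0.7 µg/ml puromycin for at least 36 h and collected 72 h after infection. The labels do not say how many shRNA sequences were used against ARIEL, and the controls had received the same kind of virus, so the comparison is between 2 infected and selected populations of 1 cell line. Jurkat cells are known to carry an insertion in NOTCH1 that permits signalling without ligand and a mutation in FBXW7, and these are shared by both groups.

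NOTCH receptors are cleaved when a ligand on a neighbouring cell binds them. The freed intracellular part enters the nucleus, joins the DNA-binding protein RBPJ and recruits a Mastermind protein such as MAML1, which turns a repressed target gene on. NOTCH1 drives commitment of thymic progenitors to the T lineage and is activated by mutation in many cases of T-ALL, where MYC, HES1, DTX1, NRARP, NOTCH3 and PTCRA are among its known targets. HES proteins are repressors, NRARP and DTX1 act back on the receptor complex, and FBXW7 marks the intracellular part for destruction.

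Promoter sequences are shown for the pair of HES genes because both are known targets of the RBPJ complex and they moved in opposite directions. Each window runs from 250 bases before to 50 bases after the start site, on the gene's own strand, 5′ to 3′ (RefSeq, GRCh38.p14). Capitals mark TGGGAA, the core of the RBPJ site. HES1 lies on the plus strand at chr3:194135898-194136197 and HES4 on the minus strand at chr1:1000048-1000347.
HES1: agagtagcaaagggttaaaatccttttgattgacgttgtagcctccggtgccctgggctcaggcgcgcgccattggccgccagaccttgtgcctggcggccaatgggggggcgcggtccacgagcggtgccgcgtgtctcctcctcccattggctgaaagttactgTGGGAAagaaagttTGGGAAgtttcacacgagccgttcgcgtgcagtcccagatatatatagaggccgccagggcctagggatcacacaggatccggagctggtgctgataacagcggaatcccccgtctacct
HES4: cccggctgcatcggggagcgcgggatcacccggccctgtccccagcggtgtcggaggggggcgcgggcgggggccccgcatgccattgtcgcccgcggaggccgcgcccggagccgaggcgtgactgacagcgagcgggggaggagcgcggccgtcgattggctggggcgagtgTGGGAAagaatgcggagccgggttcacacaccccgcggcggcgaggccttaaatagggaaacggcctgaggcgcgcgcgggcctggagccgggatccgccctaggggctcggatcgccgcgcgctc
The HES1 window holds 2 cores, whose first bases lie 84 and 70 bases before the start site. The HES4 window holds 1, at 76 bases before it. Only TGGGAA was searched, so these counts do not compare all possible RBPJ sites of the 2 windows. Both windows also hold TTCACA, which reads TGTGAA on the other strand and differs from TGGGAA in a single base. That word was not searched. At least 1 core on either strand was found in 24.0% of all 35116 promoter windows of this length, and 2 or more in 3.80%. The 9 members with a promoter entry have 16 windows, RBPJ 5 of them and FBXW7 4. A core was found in 3 of the 16 (18.8%), 1 each of HES1, HES4 and RBPJ. CACNAG, the N-box that HES proteins bind, was found in 8 of the 16 and in 38.0% of all windows. HES1 held 4 N-boxes and HES4 held none. CAGATG, an E-box bound by TAL1 with its partners (14.7% of all windows), was not found in any of the 16 promoter windows of these 9 genes. Nor was AGATAA, which is bound by factors of the GATA family (10.3%). Each window was searched on both strands. Other forms of the GATA site were not searched, and the HES1 window holds TGATAA.

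Short stretches of 3′ UTR are shown because the 7-base word GATGACA, together with a word that overlaps most of it (AGATGAC), was seen in earlier work on this table to mark lowered genes. Over the 12393 tested genes with a 3′ UTR in GENCODE 29, the 13.4% that hold at least 1 of the words had a median difference of -0.06, and the others 0.01. Since the words came from these same values, the lower median is no independent support for them. These medians were not corrected for base composition. Of the 10 members, 5 hold at least 1 word, written in capitals here, in the direction of the mRNA.
HES1: ataaaagctcAGATGACAtttcgttttt
FBXW7: aaagaagaagAGATGACAaaccataact
MAML1, first site: ctcccatgtcAGATGACttgcacttct
MAML1, second site: tcaggggaggAGATGACtttgcttctg
NOTCH3: ctcttttggcAGATGACtaccgattgg
DTX1: ggaagcccccAGATGACtgagcagttc
In GRCh38 these stretches are chr3:194138468-194138495 for HES1 (plus strand), chr4:152322688-152322715 for FBXW7 (minus strand), chr5:179775982-179776008 and chr5:179776878-179776904 for MAML1 (plus), chr19:15159477-15159503 for NOTCH3 (minus) and chr12:113097511-113097537 for DTX1 (plus). HES1 and FBXW7 hold both words, fused into AGATGACA. HES1 and MAML1 fell, NOTCH3 and DTX1 rose, and FBXW7 was not called. The 3′ UTRs differ in length, from 97 bases in HES4 to 4121 in RBPJ, against a median of 956 bases over the genes searched, and longer ones have more room for a word. Whether these words play a part in any of the differences was not tested.

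The values are in rlog units, the authors' regularised log2 of expression. The transform shrinks low and noisy values the most, and its differences are smaller than the fold changes in the authors' deposited table. Depth is unknown, since the table holds no counts. The medians of the 4 libraries over the 14601 tested genes lay between 11.31 and 11.32, and any 2 libraries of a group differed by a median of at most 0.04 per gene. The locus taken to be ARIEL from knowledge of the study, XLOC_005968 on chromosome 10, stood at 12.02 and 11.91 in control and 10.58 and 10.55 in knockdown libraries. All 12 markers of T cells and of this line passed the filter, with means from 9.35 to 16.73. Of these 6 fell, 2 rose and 4 were not called, where 22.4% of all tested genes fell and 22.1% rose. CD5, at 12.60 and 12.58 in control and 12.28 and 12.27 in knockdown libraries, fell the most. The summed level of the 12 markers was 18.25 and 18.27 in control and 18.17 and 18.20 in knockdown libraries. Among markers of other cells, MS4A1, CSF1R, HBA1, EPCAM and CDH1 are listed at 0. The summed level of the 4 B-cell markers was 10.92 and 11.00 in control and 11.24 and 11.26 in knockdown libraries. It was carried by CD79A, with a mean of 11.10, which rose by 0.29 (limma, adjusted p = 8.48e-11). Of the other 4 markers that passed the filter, the stromal gene COL1A1 had 7.36 and 7.41 in control and 7.20 and 7.21 in knockdown libraries and fell, and the epithelial gene KRT8 rose by 0.07 at a mean of 4.69. The myeloid genes ITGAM and CD14 had means of 4.37 and 3.85 and were not called. The part of these shifts in the results was not tested. The labels do not state whether the replicates are separate cultures, and p-values therefore reflect the spread among these 4 libraries alone. In these bulk RNA samples, a change in the number of cells that use a gene and a change in RNA per cell cannot be told apart.

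After ARIEL knockdown 5 of the 10 genes rose (NOTCH3, HES4, NRARP, NOTCH1 and DTX1), against 22.1% of all tested genes, and 3 fell (HES1, NOTCH2 and MAML1), against 22.4% (limma, adjusted p under 0.05). RBPJ and FBXW7 were not called. These calls rest on a spread shared among genes of similar level. Tested on its own 2 pairs of replicates alone, no member passed after adjustment over all genes. The lowest adjusted p was then 0.0748 for HES1 (limma's lmFit). In that fit 5 of the 10 had an unadjusted p under 0.05, as did 4561 of the 14601 tested genes. The 2 groups did not overlap in any of the 10 genes, as in 70.7% of all tested genes. The authors' deposited table gives the same counts, 5 higher and 3 lower, where its background is 20.1% higher and 19.3% lower. The median difference over the 10 was 0.11, against 9.3e-05 over all tested genes, and it averages out changes that ran from -0.60 for HES1 to 0.45 for NOTCH3. In size, HES1 exceeded 99.6% of all tested genes, NOTCH3 98.7% and HES4 98.3%.

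**Figure D1:**
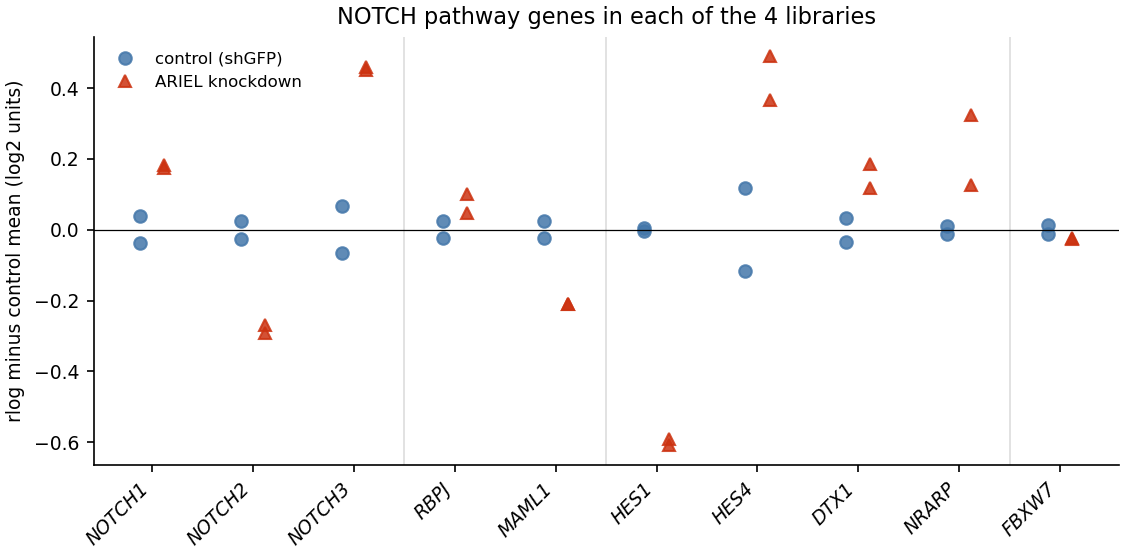
Each point is 1 library, plotted as rlog expression minus the gene's control mean (log2 units); circles are the 2 control libraries and triangles the 2 knockdown libraries, and grey lines separate receptors, nuclear factors, targets with feedback genes, and FBXW7. HES1 is the lowest, near -0.60, NOTCH3 and HES4 are the highest, and the control libraries of HES4 lie 0.23 apart.

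The receptors moved apart. NOTCH3 stood at 13.41 and 13.55 in control and at 13.93 and 13.94 in knockdown libraries. Both knockdown libraries were above both controls, with a gap of 0.38 between the groups. The difference was 0.45 ± 0.03 (limma SE, n = 2 libraries in each group, limma adjusted p = 9.95e-43). This SE is shared among genes of similar level, and that from the gene's own replicates was 0.07. NOTCH3 was 1.75-fold higher in the authors' deposited table (log2 fold change 0.81 ± 0.07, SE). NOTCH1 had 13.62 and 13.70 in control and 13.84 in each knockdown library, a smaller step in the same direction, with a difference of 0.18 ± 0.03 (limma, adjusted p = 2.96e-07) and a rise of 1.25-fold in the authors' deposited table. NOTCH2, the receptor best known from B cells and many other tissues, went the other way. It had 13.81 and 13.86 in control and 13.56 and 13.54 in knockdown libraries, a difference of -0.28 ± 0.03 (limma, adjusted p = 1.29e-16), and the authors' deposited table puts it 1.42-fold lower. The partial copy NOTCH2NL, whose exons are nearly identical to the first exons of NOTCH2, had 11.70 and 11.78 in control and 11.78 and 11.79 in knockdown libraries (difference 0.04, limma, adjusted p = 0.368). How reads shared by the pair were counted is not given in the sources used here, so the size of the NOTCH2 fall is uncertain to that extent.

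The scale of a library cancels in the difference between 2 genes within it, but the trend with base composition described below does not. Transcript GC content was 62.9% in NOTCH1, 63.1% in NOTCH3 and 73.9% in HES4, and 49.4% in NOTCH2 and 49.9% in HES1. The pairs are given without correction for it. NOTCH3 minus NOTCH2 was -0.39 and -0.31 in control and 0.37 and 0.40 in knockdown libraries, so that the sign changed and the ratio shifted by 0.74, or 1.66-fold on the rlog scale. NOTCH1 minus NOTCH2 went from -0.17 ± 0.02 (SD, n = 2) to 0.29 ± 0.02, and NOTCH3 minus NOTCH1 from -0.18 ± 0.04 to 0.10 ± 0.002. HES4 minus HES1 went from 2.26 ± 0.16 to 3.29 ± 0.07, a shift of 1.03 or 2.04-fold. In none of these 4 pairs did the groups overlap, and each had an exact permutation p of 0.333 (two-sided), the smallest that 2 against 2 libraries allow and the same after adjustment over the 4. The pairs were chosen with the values of their genes known. These are shifts of a ratio, and with no correction for transcript length its sign says nothing of which receptor RNA is the more abundant.

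**Figure D2:**
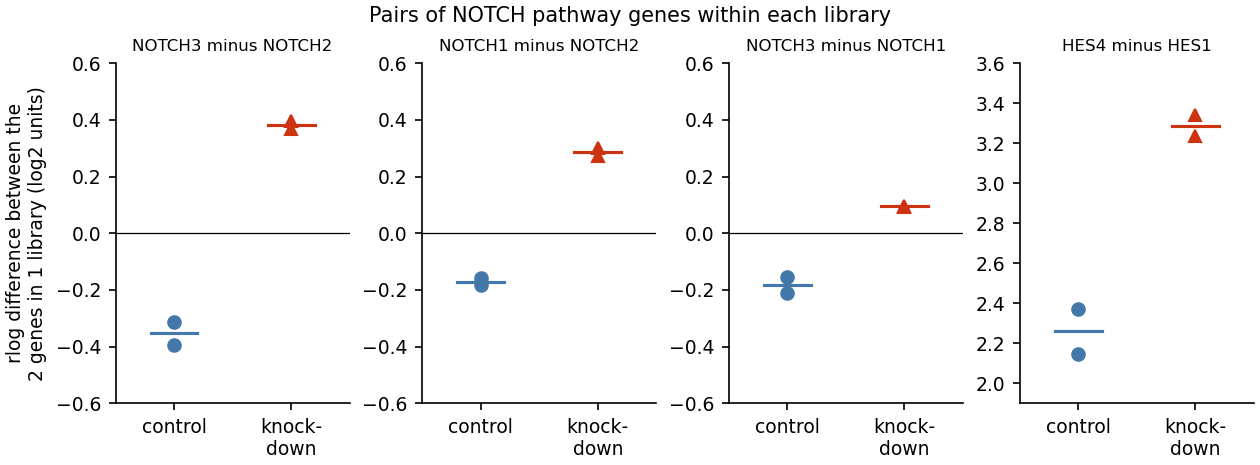
Each panel shows the rlog of the first gene minus that of the second within each library (log2 units), with circles for control and triangles for knockdown libraries and a bar at each group mean; the panel of the HES genes has its own axis, which does not start at 0. All 3 receptor pairs lie below 0 in control and above 0 in knockdown libraries, and HES4 minus HES1 goes from a mean of 2.26 to 3.29.

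Of the nuclear factors, MAML1 fell and RBPJ did not pass the test. MAML1 had 12.77 and 12.82 in control and 12.59 in each knockdown library, all knockdown values lying below the controls (difference -0.21 ± 0.03, SE; limma, adjusted p = 1.12e-08). The authors' deposited table has it 1.31-fold lower. RBPJ had 13.52 and 13.47 in control and 13.60 and 13.54 in knockdown libraries, a difference of 0.07 ± 0.03 whose groups are separated by only 0.02 (limma, adjusted p = 0.0510). The authors' deposited adjusted p for it is 0.0658. RBPJ transcripts have a GC content of 38.1%, and the median difference of the decile of genes with the lowest GC content was -0.08. With the trend of each library with GC content and length removed, RBPJ had a difference of 0.16 ± 0.02 and passed the test (limma, adjusted p = 5.38e-09). It was also called without control replicate 1 (0.10; limma, adjusted p = 0.0304).

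Among targets and feedback genes, HES1 fell and the other members rose. HES1, a repressor that is the classical read-out of NOTCH signalling, had 10.06 and 10.07 in control and 9.45 and 9.47 in knockdown libraries. Replicates lay within 0.02 of each other and the groups 0.59 apart, the clearest separation among the 10 genes (difference -0.60 ± 0.05, SE; limma, adjusted p = 2.87e-34). HES1 was 2.42-fold lower in the authors' deposited table (log2 fold change -1.27 ± 0.11, SE). The standard error from its own 2 pairs of replicates was only 0.01. HES4, its close relative, had 12.21 and 12.44 in control and 12.69 and 12.81 in knockdown libraries. Both knockdown values exceeded both controls although the controls were 0.23 apart, and the difference was 0.43 ± 0.03 (limma, adjusted p = 1.52e-32). From the gene's own replicates the standard error of HES4 was 0.13, against the shared limma value of 0.03, which pools the spread of genes of similar level. The authors' deposited table puts HES4 higher, with a log2 fold change of 0.58 ± 0.19 (SE) and an adjusted p of 0.00682.

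The feedback genes rose by less. NRARP, an ankyrin-repeat protein that binds the receptor complex and limits it, was the lowest of the 10, at 6.62 and 6.60 in control and 6.73 and 6.93 in knockdown libraries. The knockdown libraries were both higher but lay 0.20 apart, and the difference was 0.23 ± 0.04 (SE; limma, adjusted p = 1.70e-07), with a standard error of 0.10 from its own replicates. Its rise in the authors' deposited table was 1.70-fold (log2 fold change 0.77 ± 0.21, SE), far more than on the rlog scale, which shrinks low genes the most. Without knockdown replicate 2 the difference of NRARP was 0.13 (limma, adjusted p = 0.0383). DTX1, a ubiquitin ligase that binds the receptor's intracellular part, had 11.19 and 11.26 in control and 11.34 and 11.41 in knockdown libraries. Each group spanned 0.07 and the gap between them was 0.09 (difference 0.15 ± 0.04; limma, adjusted p = 0.000651). Without knockdown replicate 2 DTX1 had 0.12 and was not called (limma, adjusted p = 0.0792). The authors' deposited table has DTX1 1.22-fold higher.

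FBXW7, the substrate-binding part of the ligase that marks NOTCH1 and MYC proteins for destruction, was not called. It had 13.18 and 13.15 in control and 13.14 in each knockdown library, a difference of -0.03 ± 0.03 (SE; limma, adjusted p = 0.566). Its log2 fold change in the authors' deposited table was -0.05 ± 0.06 (SE).

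**Figure D3:**
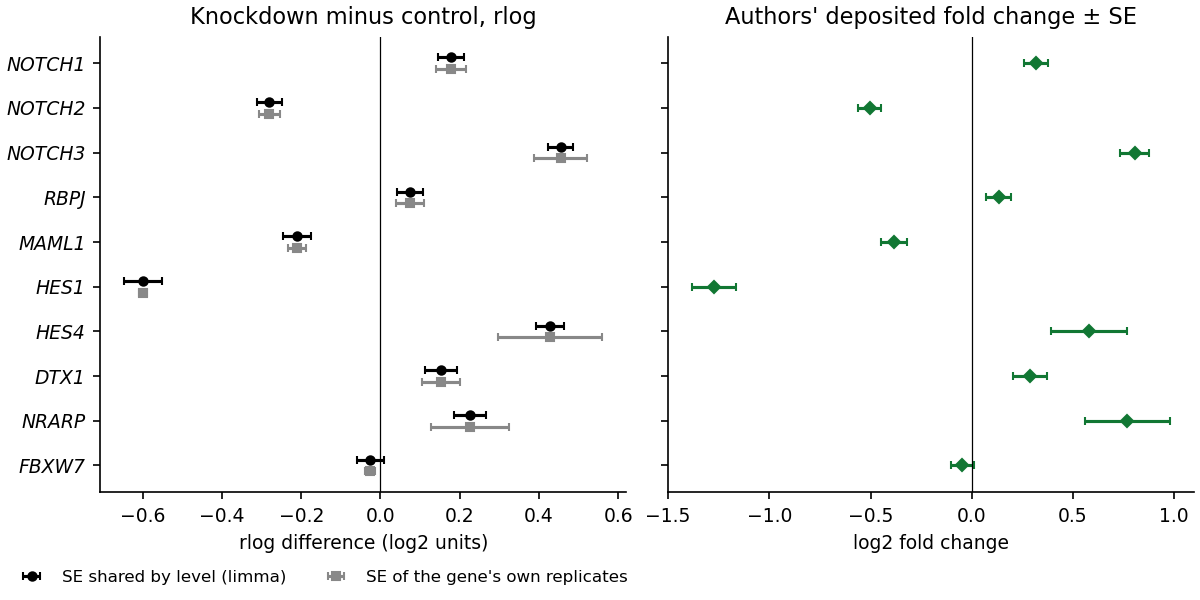
On the left, the rlog difference of each gene (knockdown minus control, log2 units) is drawn with 2 standard errors, that of limma, which shares the spread among genes of similar level (black), and that of the gene's own replicates (grey); on the right is the authors' deposited log2 fold change ± SE on its own axis. The 2 scales have the same sign for all 10 genes, and the grey bars of HES4 and NRARP are the widest.

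A trend with base composition ran through the whole table. NOTCH1, NOTCH3, HES4, DTX1 and NRARP all lie in the decile of genes with the highest transcript GC content, from 62.9% in NOTCH1 to 73.9% in HES4, and the median difference of that decile was 0.08. The 3 fallen genes lie between 49.4% (NOTCH2) and 55.5% (MAML1), where the medians were -0.01 and 0.03. With the trend of each library with GC content and length removed, HES4 had a difference of 0.27, DTX1 0.09 and NRARP 0.12, each moved by more than 1.5 times. The other called members moved less: NOTCH3 to 0.41, NOTCH1 to 0.13, HES1 to -0.61, NOTCH2 to -0.25 and MAML1 to -0.22. All 8 were called with the trend removed, with the largest adjusted p at 0.0225 for NRARP (limma), and with RBPJ 6 members rose and 3 fell, against 27.8% and 25.4% of the 12719 genes in that fit. The trend also runs between replicates: in that decile the median of replicate 2 minus replicate 1 was 0.04 in control and 0.02 in knockdown libraries.

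**Figure D4:**
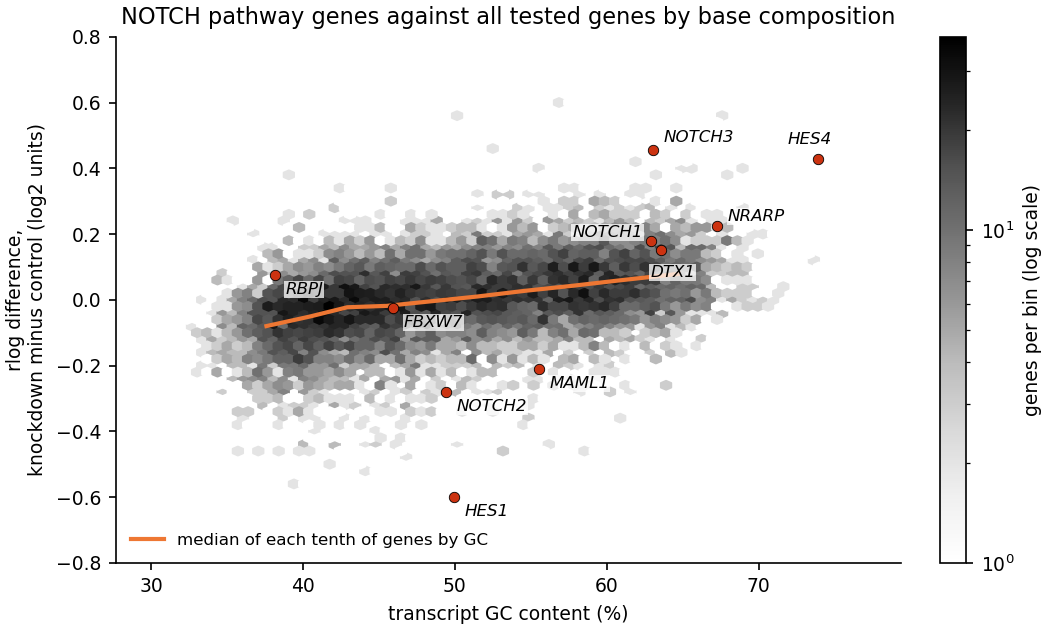
Grey hexagons count tested genes by transcript GC content (%) and rlog difference (knockdown minus control, log2 units), the line joins the medians of the 10 groups of equal size by GC content, and red points are the 10 NOTCH pathway genes; 11 genes beyond ±0.8 are not drawn. The line climbs from -0.08 to 0.08, with the 5 risen genes above its right end and HES1 and NOTCH2 well below its middle.

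Expressed per kilobase of the longest coding transcript, so that genes can be set side by side, HES4 had the highest level of the 10 and NRARP the lowest in both groups. In control libraries the mean rlog per kb was 12.27 for HES4, 10.95 for RBPJ, 10.67 for FBXW7, 10.44 for NOTCH1, 10.36 for NOTCH3, 10.32 for NOTCH2, 10.28 for MAML1, 9.44 for DTX1, 9.40 for HES1 and 5.78 for NRARP. Libraries of each neighbouring pair from NOTCH1 to MAML1 overlapped, as did those of DTX1 and HES1, so the order within them is not beyond the spread. In knockdown libraries NOTCH3 stood above FBXW7 and NOTCH1, at 10.82 against 10.64 and 10.62. NOTCH2 was then at 10.04 and MAML1 at 10.07, and HES1 at 8.80 was 0.79 below DTX1, with no overlap between neighbours. A single transcript stands for each gene here, and other isoforms would shift its level.

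Ligands and the remaining receptor went both ways. Of the 6 tested, 2 rose, 2 fell and 2 were not called, where 22.1% of all tested genes rose and 22.4% fell. With the GC and length trend removed, 1 rose and 3 fell, where 27.8% of the genes in that fit rose and 25.4% fell. JAG1, a ligand of the Serrate type, had 10.30 and 10.24 in control and 10.01 and 10.08 in knockdown libraries (difference -0.23 ± 0.05, SE; limma, adjusted p = 6.77e-06). NOTCH4, the endothelial receptor, had 6.65 and 6.63 against 6.79 and 6.85 and rose by 0.18 ± 0.04. DLL4 rose by 0.10 ± 0.03 and DLL1 differed by -0.10 ± 0.03. The authors' deposited table calls neither of these last genes, with adjusted p of 0.0537 and 0.104, and DLL4 lost its call with the trend removed. DLL3 had a difference of 0.07 ± 0.05 and JAG2 of -0.06 ± 0.05, and JAG2 was called with the trend removed (-0.12; limma, adjusted p = 0.0164).

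Genes that glycosylate and cleave the receptors had 2 of 13 tested members higher (15.4%), 2 lower (15.4%) and 9 not called (69.2%), against 22.1%, 22.4% and 55.6% of all tested genes. With the GC and length trend removed, 3 rose and 3 fell (23.1% each), against 27.8% and 25.4% of the genes in that fit. ADAM17, a metalloprotease that can shed the receptor's outer part, had 12.72 and 12.70 in control and 12.29 and 12.28 in knockdown libraries and fell by 0.42 ± 0.04 (SE), and ADAM10, the main protease for that cut, fell by 0.17 ± 0.03, or by 0.07 with the trend removed, where it was still called. MFNG, a Fringe glycosyltransferase that tunes the response to ligands, rose from 12.75 and 12.77 to 13.05 and 13.06, a difference of 0.29 ± 0.03. Another Fringe gene, RFNG, rose by 0.13 ± 0.04 and was not called with the trend removed (limma, adjusted p = 0.439). The γ-secretase subunit genes NCSTN, APH1A, APH1B and PSENEN were not called, with differences between -0.06 for PSENEN and 0.07 for APH1A, and PSEN2 was under the filter. PSENEN was called with the trend removed (-0.08; limma, adjusted p = 0.0181).

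Corepressors that hold RBPJ targets silent had 6 of 14 members lower (42.9%), 1 higher (7.14%) and 7 not called, with a median of -0.06, against 22.4% lower and 22.1% higher over all tested genes. With the GC and length trend removed, 8 fell (57.1%) and 2 rose (14.3%), against 25.4% and 27.8% of the genes in that fit. The falls with the largest size were L3MBTL3 (-0.22 ± 0.05, SE), FHL1 (-0.17 ± 0.04), KDM5A (-0.14 ± 0.03) and TLE1 (-0.11 ± 0.04), and SPEN, the large adaptor that brings corepressors to RBPJ, fell by 0.10 ± 0.03. KDM5A, a histone demethylase gene, had -0.08 with the trend removed and was still called. HDAC1, a histone deacetylase, rose by 0.10 ± 0.03. Of 7 other coactivators, MAML3 fell by 0.17 ± 0.04, the acetyltransferase gene KAT2A rose by 0.15 ± 0.04, and 5 were not called, among them KAT2B (-0.06 ± 0.04), MAML2 (0.05 ± 0.03) and CREBBP (0.04 ± 0.04). MAML2 was called with the trend removed (0.10; limma, adjusted p = 0.00834).

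Genes of receptor endocytosis and turnover had 6 of 11 members lower (54.5%) and 2 higher (18.2%), with a median of -0.07, against 22.4% and 22.1% of all tested genes. With the GC and length trend removed, 5 fell (45.5%) and 3 rose (27.3%), against 25.4% and 27.8% of the genes in that fit. CDK8, the kinase that with cyclin C marks the intracellular receptor for FBXW7, had 11.46 and 11.45 in control and 11.92 and 11.96 in knockdown libraries, a rise of 0.48 ± 0.04 (SE). Its paralogue CDK19 fell by 0.25 ± 0.04. CCNC, the cyclin, fell by 0.07 ± 0.03 (limma, adjusted p = 0.0494), and was not called with the trend removed (0.545). SEL1L, an adaptor of protein quality control in the endoplasmic reticulum, had 13.50 and 13.43 against 12.99 and 12.97 and fell by 0.48 ± 0.03. AAK1, an endocytosis kinase that binds NUMB, fell by 0.17 ± 0.04, or by 0.10 with the trend removed, and NUMBL rose by 0.16 ± 0.05.

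Most other HES and HEY genes were low. Of 8 listed, 4 passed the filter. Where 22.1% of all tested genes rose and 22.4% fell, 1 of these 4 was called, HES6, which opposes HES1. It had 11.34 and 11.42 in control and 11.48 and 11.55 in knockdown libraries (difference 0.14 ± 0.04, SE), and was not called with the GC and length trend removed (0.03; limma, adjusted p = 0.435). HEY1, HEY2 and HEYL had differences between -0.02 for HEY2 and 0.01 for HEYL at mean levels of 4.82, 7.69 and 8.49. HES2, HES5 and HES7 had mean levels of 2.81, 1.18 and 2.07, under the filter, and HES3 is listed at 0.

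Further known NOTCH1 targets of T cells and T-ALL did not move as 1 group. Of 12 tested, 3 rose, 6 fell and 3 were not called, where 22.1% of all tested genes rose and 22.4% fell, with a median of -0.11, and with the GC and length trend removed 3 rose and 7 fell. PTCRA, the invariant chain of the pre-T-cell receptor, had 9.73 and 9.88 in control and 11.07 and 11.28 in knockdown libraries. It rose by 1.37 ± 0.04 (limma SE), with a standard error of 0.13 from its own replicates. The other risen targets were IGF1R (0.20 ± 0.03), a growth factor receptor gene, and MYC (0.14 ± 0.03), a driver of growth in T-ALL. CCND3, the cyclin D gene of dividing thymocytes, had 14.69 and 14.70 against 14.25 and 14.26 and fell by 0.44 ± 0.03. TRIB2, a pseudokinase gene, fell by 0.31 ± 0.04, CR2, a complement receptor gene, by 0.27 ± 0.05, and GATA3, a T-lineage transcription factor gene, by 0.27 ± 0.05. The remaining fallen targets were IL7R, by 0.22 ± 0.03, and LEF1, by 0.19 ± 0.03. Over all 67 tested pathway genes outside the 10, 12 rose (17.9%) and 23 fell (34.3%), against 22.1% and 22.4% of all tested genes, with a median of -0.02. With the trend removed 14 rose (20.9%) and 27 fell (40.3%), against 27.8% and 25.4% of the genes in that fit. The authors' deposited table calls 11 of the 67 higher and 21 lower, where its background is 20.1% higher and 19.3% lower.

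**Figure D5:**
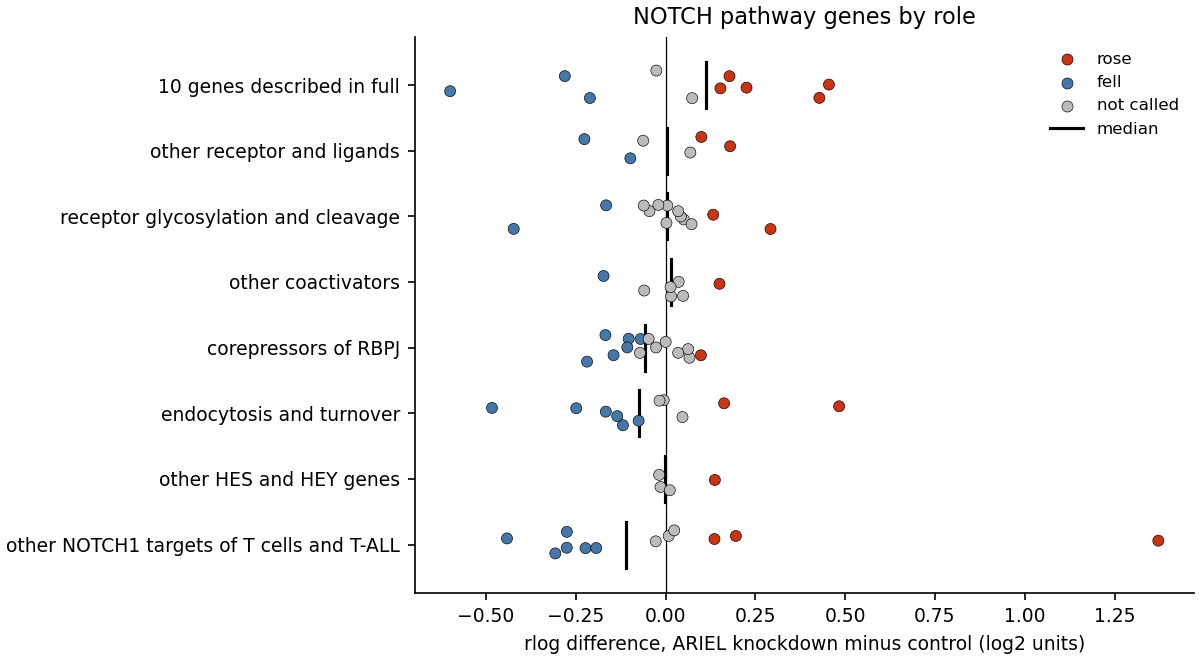
Each point is 1 tested gene, placed by its rlog difference (ARIEL knockdown minus control, log2 units) in the row of its role, with small vertical offsets for legibility; red points rose, blue fell and grey were not called, and a bar marks each row's median. The 10 genes described in full have a median of 0.11, and the medians of corepressors (-0.06), turnover genes (-0.07) and other targets (-0.11) lie below 0.

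The genes whose 4 values were most like those of a member, by the Euclidean distance of values centred on each gene's mean over the 4 libraries, were not NOTCH pathway genes. For NOTCH1 they were IVD, ELMO3 and SELO (distances from 0.0051 to 0.0098), and for HES1 SPINK2, TRAF3IP2 and INSIG1 (0.02 to 0.03). For NOTCH3 they were SOX12, PITX1 and ITPK1 (0.03 to 0.05), and for HES4 PITX1, PTMS and SOX12 (0.08 to 0.10). SOX12 and PITX1 thus appear for both NOTCH3 and HES4. With 4 libraries in 2 groups this likeness mainly restates the size of the difference between groups.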

How the data were processed

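RNA from 4 Jurkat libraries (2 control, 2 ARIEL knockdown) was read as strand-specific 100-base pairs, per the labels' protocols. Build hg19 and the tools DESeq2 1.12.4, HTSeq 0.6.1 and STAR 2.5.2a appear, per the submitters' processing notes, with no role stated. Which annotation, filters and strand setting were used in counting is not given in the sources used here. For each gene the deposited table has rlog values of every library on the log2 scale, per the file headers. The authors' log2 fold change, its standard error, a test score and a p-value, raw and adjusted, stand beside them. No counts are among them, which leaves depth and counting error unknown.

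Groups and replicate numbers came from sample titles. limma 3.58.1 (R 4.3.3; lmFit, eBayes with a trend on level, no pseudocount) was fitted to all 14601 genes whose mean rlog reached log2 of 10, with Benjamini-Hochberg adjustment at 0.05, two-sided, and was tested on simulated data. All genes of a level share 1 spread, because the prior degrees of freedom were infinite. GC content, length and 3′ UTRs came from the transcript with the longest coding sequence in GENCODE 29, matched by gene ID for 19319 of 20125 Ensembl rows; GC and length trends were removed per library by splines (5 degrees of freedom each) over 12719 genes. Python 3.11.15, pandas 2.3.3 and scipy 1.17.1 were used for the rest. In GENCODE 29 the genes AL592301.1 and FBXW7-AS1 lie antisense to NOTCH1 and FBXW7 and have no row of their own.

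The members, the lists and the motifs were chosen with earlier results of these data known. Named genes were all 10 members, and in each other role up to 5 tested genes with the largest difference, plus ligands and HES and HEY genes; for NOTCH1, NOTCH3, HES1 and HES4 the 3 genes with the nearest values are named. The γ-secretase genes other than APH1A, and HDAC1, CCNC, IGF1R, MYC, IL7R and LEF1, fall outside this rule and were named after their values were seen. Alternatives were other filters, scalings and spreads, a replicate block, each library left out, the trend removed, and the authors' deposited test.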

Additional observations from a re-analysis of the deposited data

How the results depend on the processing

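Each member's difference was recomputed under 15 alternatives, 150 values in all, of which 133 kept their direction and their side of the threshold. Other filters, other spreads and the replicate block cannot change a difference, so under these only the call could differ. When every gene was tested on its own spread alone (limma's lmFit without sharing, 2 residual degrees of freedom), no gene was called. Thus 0 genes rose or fell, 0 members and 0 other pathway genes. An unadjusted p under 0.05 was found for 4561 of the 14601 tested genes and 5 of the 10 members. The limma fit that shares the spread called 6488 genes and the authors' deposited test 5728. Testing on a gene's own spread cannot change the differences, which were 0.18 for NOTCH1, -0.28 for NOTCH2, 0.45 for NOTCH3 and -0.60 for HES1. Those of HES4, DTX1, NRARP and MAML1 were 0.43, 0.15, 0.23 and -0.21. On their own spread these 8 had adjusted p from 0.0748 (HES1) to 0.282 (NRARP; limma's lmFit). RBPJ was called with the stricter filter of 50 (0.074), with medians centred (0.080), with a replicate block (0.074), with the GC and length trend removed (0.16) and with both of these last (0.16). FBXW7 changed sign, to 0.017, with the trend removed, with or without the block, and was called in neither; the cause was not tested. Leaving out 1 library at a time gave 0.12 to 0.19 for DTX1, not called without knockdown replicate 2, and 0.048 to 0.10 for RBPJ, called without control replicate 1 only. It gave 2004 to 3061 risen genes, the fewest without knockdown replicate 2. The replicate numbers are not stated to pair the libraries. Over genes, replicate 2 minus replicate 1 correlated between groups at 0.20, and the replicate block called 7426 genes and left the 8 calls in place.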
